A study of Mus musculus with 6 samples.

Results

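The replication-dependent histone genes are the 67 genes of the 32285 in the feature lists whose symbol starts with Hist1h, Hist2h, Hist3h or Hist4h. By the symbol, 6 encode the linker histone H1, 18 encode H2A, 18 encode H2B, 12 encode H3 and 13 encode H4. RefSeq places 54 of them on chromosome 13, 10 on chromosome 3, 2 on chromosome 11 and 1 on chromosome 6. They were measured in T cells from brain tumors of wild-type (WT) C57BL/6J mice aged 6 to 8 weeks, in which the tumor was CT2A, a mouse glioma line placed in the brain. CD3+CD4+ and CD3+CD8+ cells were collected by flow sorting on day 13 (16 mice, with replicates made as pools of 4 mice) or on day 19 (4 mice) and run with 10x Genomics 5′ chemistry. Each day has 1 gene expression library, so day and capture cannot be told apart, and neither can the day and the pooling of mice. The analysis covers the 7847 barcodes that also stand in a table of T cell receptor contigs, hold at least 5000 gene UMIs and at most 10% mitochondrial UMIs. These are 4632 cells on day 13 and 3215 on day 19.

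Replication-dependent histone genes supply the octamers of H2A, H2B, H3 and H4, and the H1 that binds between them, for newly copied DNA. Most of them lack introns, lie in clusters and are transcribed in S phase, and their messenger RNAs usually end in a stem-loop bound by Slbp instead of a poly(A) tail. Replacement histones such as H3f3b and H2afz come from separate genes that are read throughout the cell cycle. The library protocol primes reverse transcription with poly(dT), and the part that this plays in the level of any histone gene was not tested.

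The stretches before the start site are shown for 5 genes with different patterns, chosen after their values were seen: Hist1h2ae, with the most UMIs; Hist1h1b, with the lowest share of UMIs in cells without Mki67 and Top2a among the H1 genes; and Hist1h1c, Hist3h2ba and Hist1h4i, which kept a large share of their UMIs in cells without Mki67 and Top2a. Hist3h2a and Hist2h2be, with the highest such shares of the genes with 50 or more UMIs, are not shown. Each line gives the 250 bases (179 for Hist1h2ae, up to the divergent neighbour Hist1h2bg) before the RefSeq start site on the gene's strand, 5′ to 3′, from RefSeq GRCm38.p6. They lie at chr13:23571221-23571399 (minus strand), chr13:21780626-21780875 (minus), chr13:23738557-23738806 (plus), chr11:58948661-58948910 (plus) and chr13:22041363-22041612 (minus). Each lies upstream of its own gene, and the Hist3h2ba stretch, like Hist3h2ba itself, lies within the span of the RefSeq gene Gm51864, so reads of the 2 could not be told apart here. Capitals mark matches on either strand to the CCAAT box (CCAAT), the TATA box (TATAAA) and the octamer (ATTTGCAT).
Hist1h2ae: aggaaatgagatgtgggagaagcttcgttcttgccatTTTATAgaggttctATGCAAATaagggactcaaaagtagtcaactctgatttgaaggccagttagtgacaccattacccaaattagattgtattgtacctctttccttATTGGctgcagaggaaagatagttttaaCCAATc
Hist1h1b: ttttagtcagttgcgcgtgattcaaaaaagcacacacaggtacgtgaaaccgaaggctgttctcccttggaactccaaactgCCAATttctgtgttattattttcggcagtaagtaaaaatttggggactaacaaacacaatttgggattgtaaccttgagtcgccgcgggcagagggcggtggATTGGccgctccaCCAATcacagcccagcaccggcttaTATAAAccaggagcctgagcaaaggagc
Hist1h1c: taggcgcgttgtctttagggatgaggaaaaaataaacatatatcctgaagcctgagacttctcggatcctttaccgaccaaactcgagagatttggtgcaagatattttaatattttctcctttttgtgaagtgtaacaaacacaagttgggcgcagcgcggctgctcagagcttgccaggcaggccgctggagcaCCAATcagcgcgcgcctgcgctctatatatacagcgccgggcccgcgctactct
Hist3h2ba: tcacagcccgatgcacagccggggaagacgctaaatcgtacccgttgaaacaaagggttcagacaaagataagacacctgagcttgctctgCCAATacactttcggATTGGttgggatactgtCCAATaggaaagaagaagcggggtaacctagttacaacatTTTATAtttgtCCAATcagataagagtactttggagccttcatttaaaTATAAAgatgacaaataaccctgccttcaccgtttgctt
Hist1h4i: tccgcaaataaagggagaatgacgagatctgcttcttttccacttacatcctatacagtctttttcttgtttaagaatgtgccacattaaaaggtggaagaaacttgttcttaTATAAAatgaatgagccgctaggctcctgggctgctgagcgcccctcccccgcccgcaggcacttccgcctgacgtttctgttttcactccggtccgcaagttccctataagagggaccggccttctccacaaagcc
The search used the RefSeq windows of 300 bases, 250 before and 50 after the start, which exist for 62 of the 67 genes. CCAAT was found in 85.5% of these windows, against 37.4% of all 32851 promoter windows. It was in each window of H1 (6), H2A (18), H2B (16) and H3 (10) genes, and in 3 of 12 for H4. TATAAA was found in 56.5% of the histone windows and 13.6% of all windows, and ATTTGCAT in 21.0% and 1.74%, in 7 of 18 H2A and 6 of 16 H2B windows. Hist3h2ba had 4 CCAAT matches and Hist1h1b 3, while the window of Hist1h4i had none. A match describes the letters of a window and does not show that a factor binds there.

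Values are in CPM, the UMIs of a gene or of all 67 genes scaled to the total gene UMIs of the same cells, and a UMI marks 1 captured molecule. The cells held 45254423 gene UMIs on day 13 and 39526363 on day 19, with a median of 7608 and 10079 per cell, and 51162 and 60611 UMIs of the histone genes. T cell markers (Cd3d, Cd3e, Cd3g, Trac and Trbc2) gave 3 or more UMIs in 99.9% of cells on both days. The 10 myeloid markers, such as C1qa, Lyz2 and Tyrobp, gave 3 or more UMIs together in 38.9% of cells on day 13 and 60.4% on day 19. The 4 contig tables of a day, called contig sets here, held 344 to 1625 of the cells each and shared no barcode. The labels do not tie a set to a mouse or pool, so ranges over sets are descriptions and no test between groups is made. Among the cells, 28 barcodes occurred on both days. No doublet caller was run. Intervals are exact 95% intervals that cover counting error only. Near-identical copies of these genes can split or lose reads in the authors' counting, so values of single genes are less certain than their sums, and antisense or overlapping reads could not be checked.

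The question of the first comparison was how far the genes follow Mki67, the proliferation antigen, within these T cells. Mki67 had at least 1 UMI in 13.7% of cells on day 13 (11.99 to 15.9% over the 4 sets) and in 23.5% on day 19 (20.1 to 32.8%). In the 1390 cells with Mki67 the histone genes summed to 3821 CPM, and in the 6457 cells without it to 322 CPM. In cells with Mki67 the sums of contig sets 1 to 4 were 4270, 4165, 3583 and 3223 CPM on day 13, and 3370, 4144, 3358 and 3972 CPM on day 19. In cells without Mki67 they were 355, 349, 318 and 295 CPM on day 13, and 330, 305, 307 and 324 CPM on day 19. The sets with Mki67 all lay far above the sets without it, and the groups did not overlap. The log2 ratio of the sums was 3.57 (interval 3.55 to 3.59), and 3.35 to 3.76 within single sets. Cells with Mki67 were also deeper, with a median of 15767 gene UMIs against 7687, and their myeloid markers summed to 4516 CPM (2553 to 6918 over the sets) against 5637 (3397 to 13761). The part of depth and of myeloid RNA in the ratio was not tested. With each cell thinned to 5000 UMIs and Mki67 read again from the thinned counts, the median log2 ratio over genes was 3.57.

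Of the 67 genes, 56 had at least 20 UMIs over both groups, 10 had 1 to 19 and Hist1h2ba had none. At least 2-fold higher in cells with Mki67 were 53 of the 56, against 6.02% of the 13991 genes with as many UMIs. None was 2-fold lower (3.82% of all genes). The median log2 ratio was 3.59 over the histone genes and -0.01 over all genes. Against the 142 cells without any UMI of Mki67, Top2a and the S-phase and G2/M lists, the histone median was 2.37. Those cells held 289 histone UMIs, and genes with 0 UMIs there were set to 3 counts, so 2.37 is in part a floor value. Their histone sum was 317 CPM, beside 322 CPM in all cells without Mki67. In 47 of the 56 genes the lowest set with Mki67 lay above the highest set without it, against 9.51% of all genes tested. By type, 5 of 5 H1, 13 of 14 H2A, 14 of 15 H2B, 9 of 9 H3 and 12 of 13 H4 genes were past 2-fold. The H2A sum had the highest ratio, 4.95 on the log2 scale (4.43 to 5.22 over the sets), followed by H3 at 3.71 (3.30 to 4.11), H2B at 3.59 (3.13 to 4.02), H1 at 3.01 (2.85 to 3.11) and H4 at 2.75 (2.47 to 2.96). The set ranges of H3 and H2B overlapped, and those of H1 and H4 did so too.

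**Figure D1:**
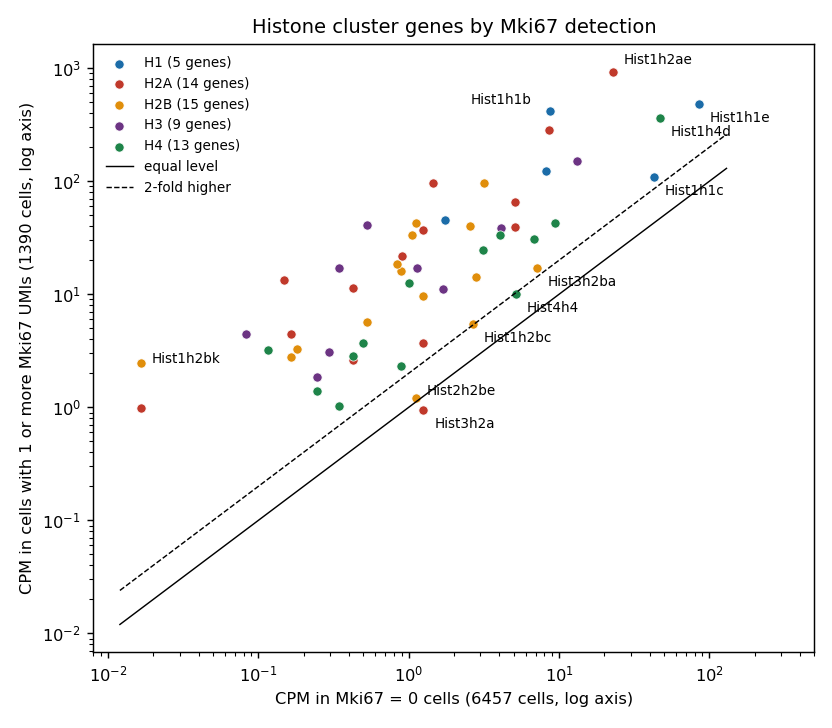
CPM of each of the 56 histone genes with at least 20 UMIs in cells with 1 or more Mki67 UMIs (y axis, log scale) against cells without Mki67 (x axis, log scale), coloured by histone type. Points above the dashed line are at least 2-fold higher with Mki67 (53 of 56); Hist3h2a and Hist2h2be lie at the line of equal level.

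H1 links nucleosomes and compacts chromatin. Hist1h1e had the most UMIs of the H1 genes (16767). It measured 481 CPM with Mki67 and 84.9 CPM without, a log2 ratio of 2.50 (2.45 to 2.55). It was higher in each of the 8 sets. Hist1h1b (10616 UMIs) was much lower without Mki67. Its day-13 sets measured 487, 484, 436 and 405 CPM with Mki67 and 4.32, 10.2, 10.3 and 5.21 CPM without, and its log2 ratio over both days was 5.59 (5.46 to 5.72). Hist1h1c had the lowest ratio of the type, 1.37 (1.29 to 1.44). It measured 110 CPM with Mki67 and 42.7 CPM without, and the sets did not overlap (87.3 to 123 against 35.1 to 54.2). Hist1h1d reached 3.91 and Hist1h1a 4.70, while Hist1h1t, a testis form, had 4 UMIs.

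H2A and H2B pair in the nucleosome core. Hist1h2ae had the most UMIs of all 67 genes, 23909. In cells with Mki67 its sets measured 1045, 1061, 823 and 808 CPM on day 13 and 755, 977, 873 and 1017 CPM on day 19. In cells without Mki67 they measured 20.9, 23.7, 19.7 and 18.2 CPM on day 13 and 30.3, 24.5, 24.2 and 26.5 CPM on day 19. The 2 groups were far apart in each set, with a log2 ratio of 5.35 (5.27 to 5.43). Hist1h2ap had a ratio of 5.06, Hist1h2ab 6.07 and Hist2h2ac 3.70. Hist3h2a was the one H2A gene with 20 or more UMIs that was not higher: it measured 0.953 CPM with Mki67 and 1.25 CPM without (log2 ratio -0.40, interval -1.14 to 0.29), and was higher in 4 of 8 sets and lower in the other 4.

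Among the H2B genes, Hist1h2bj (2510 UMIs) measured 96.0 CPM with Mki67 and 3.18 CPM without, a log2 ratio of 4.91 (4.70 to 5.13). Hist2h2bb had a ratio of 3.96, Hist1h2bb 5.25 and Hist1h2bm 4.99. Each of these 4 was higher in 8 of 8 sets. The H2B genes also held the widest spread: Hist1h2bk, with 61 UMIs of which 1 came from a cell without Mki67, had the highest ratio of all, 7.24 with an interval from 4.70 to 12.6. Hist2h2be measured 1.201 and 1.12 CPM (log2 ratio 0.10, interval -0.58 to 0.75, higher in 4 of 8 sets). Hist1h2bc had a ratio of 1.02 (0.68 to 1.36) and Hist3h2ba 1.25 (1.05 to 1.44), and both were higher in 8 of 8 sets. RefSeq gives 61 of the 67 genes a span of 1000 bases or less, and the 6 longer ones are all H2B genes: Hist2h2be, Hist1h2bc, Hist1h2be, Hist1h2bp, Hist1h2bq and Hist1h2br. The ratio of Hist1h2be was 2.33 and that of Hist1h2bp 4.17, beside the values of Hist2h2be and Hist1h2bc above and a median of 4.07 over the 15 H2B genes compared. Hist1h2br (19 UMIs) and Hist1h2bq (1 UMI) held too few UMIs for a ratio.

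H3 and H4 form the central tetramer. Hist1h3e (4444 UMIs) measured 151 CPM with Mki67 and 13.2 CPM without, a log2 ratio of 3.52 (3.41 to 3.63). Hist1h3f had a ratio of 3.21, Hist1h3i 3.92 and Hist1h3c 6.27 (5.76 to 6.82). The H3 genes with 20 or more UMIs all lay between 2.72 (Hist1h3a) and 6.27. Hist1h4d had the most UMIs of the H4 genes (11605). It measured 362 CPM with Mki67 and 47.1 CPM without, a log2 ratio of 2.94 (2.88 to 3.004). Hist1h4h had a ratio of 3.05, Hist1h4i 2.18, Hist1h4c 2.17 and Hist4h4, the single gene of its cluster, 0.96 (0.71 to 1.21). Hist4h4 was the H4 gene that missed 2-fold, although it was higher in 8 of 8 sets.

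The level was higher in cells with more Mki67 UMIs, and a single Mki67 UMI went with little of the difference. The sum was 322 CPM at 0 Mki67 UMIs, 527 at 1, 1965 at 2 to 3, 4949 at 4 to 7 and 6437 at 8 or more. At 8 or more the sets ran from 5031 to 7973 CPM, and at 1 from 376 to 1299 CPM, where the highest was set 1 of day 13. Top2a, the topoisomerase that untangles copied DNA, gave the same order: 323, 396, 801, 3321 and 6576 CPM. The median cell held 2 histone UMIs at 0 Mki67 UMIs and 134 at 8 or more. These bins differ in depth, with medians of 7687 and 20811 gene UMIs at the ends. Cells with a UMI of both Mki67 and Top2a (931 cells) had 4831 CPM, cells with Mki67 alone 427, cells with Top2a alone 368 and the 5571 cells with neither 312. The first group held 21.9% of the gene UMIs and 80.4% of the histone UMIs. The 399 cells with 100 or more histone UMIs held 68.1% of all histone UMIs.

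**Figure D2:**
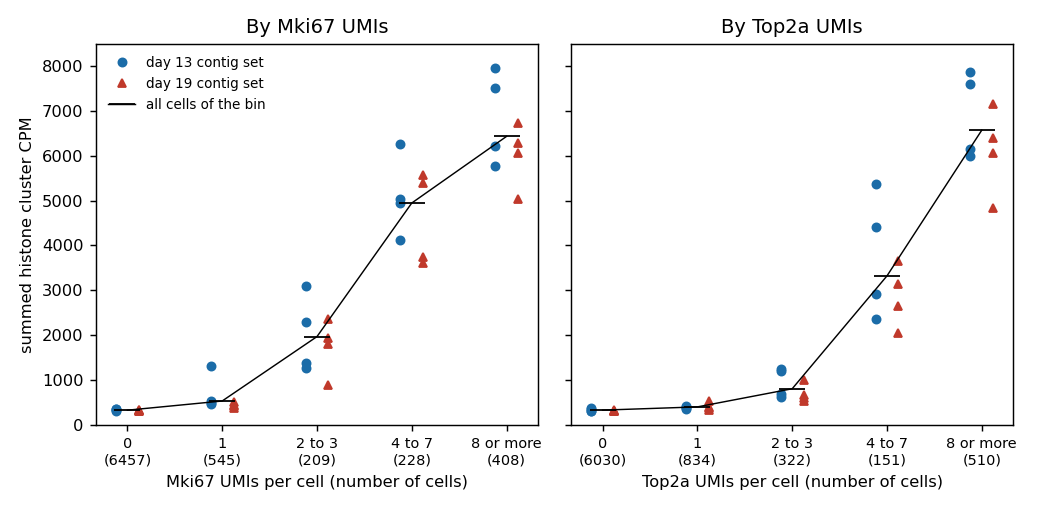
Summed CPM of the 67 histone genes (y axis) in cells grouped by Mki67 UMIs (left) and Top2a UMIs (right), with the number of cells under each bin; circles are the 4 contig sets of day 13, triangles the 4 of day 19 and bars the sum over all cells of the bin. The sum is 322 CPM at 0 and 527 CPM at 1 Mki67 UMI and reaches 4949 CPM at 4 to 7.

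Cells were then placed by 22 S-phase genes (such as Mcm2 to Mcm7, Pcna and Tyms) and 20 G2/M genes (such as Cdk1, Ccnb1 and Plk1), with each cell thinned to 5000 UMIs. Cells with 6 or more UMIs of both lists (609 cells) had 6759 CPM of the histone genes and held 59.7% of their thinned UMIs. Cells with 6 or more S-phase UMIs and no G2/M UMI (473 cells) had 327 CPM, close to the 292 CPM of the 417 cells with no UMI of either list. With 1 to 2 G2/M UMIs the level at 6 or more S-phase UMIs was 416 CPM, and with 3 to 5 it was 1103 CPM. High S-phase counts without G2/M counts did not mark cells with high histone levels. Of those 473 cells, 11.6% had Mki67, against 95.6% of the 609 cells, so most of them lacked a Mki67 UMI. The 68 cells with 6 or more G2/M UMIs and 2 or fewer S-phase UMIs had 1374 CPM, but 1 set held 2 of them.

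**Figure D3:**
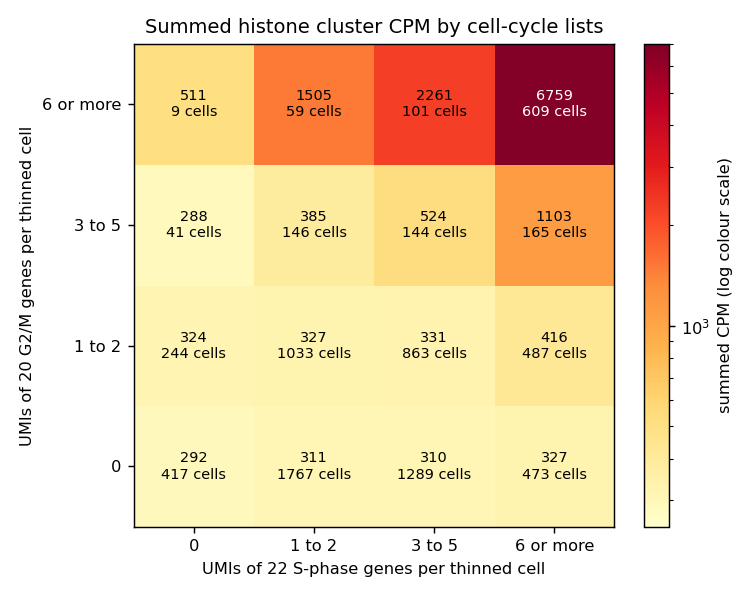
Summed CPM of the 67 histone genes (numbers and colour, log colour scale) in cells thinned to 5000 UMIs, by UMIs of 22 S-phase genes (x axis) and 20 G2/M genes (y axis), with the number of cells. The cell at upper right, both lists 6 or more, has 6759 CPM; the whole lowest row lies between 292 and 327 CPM.

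Within cells with Mki67 and 10 or more UMIs of the 2 lists, cells were grouped by the share of S-phase UMIs among the list UMIs. The histone sum was 4250 CPM where that share was under 20%, 6742 at 20 to 40%, 7166 at 40 to 60%, 6023 at 60 to 80% and 1766 at 80% or more. The median cell of these bins held 11, 11, 9, 6 and 2 Mki67 UMIs in the same order, and the part of that difference in the histone sums was not tested. The sets spread widely, from 3743 to 9900 CPM at 20 to 40% and from 4800 to 8516 CPM at 40 to 60%, so the order of the 3 middle bins is within their spread. The top bin, at 1044 to 3543 CPM, lay below the lowest set of each middle bin. Single genes differed in this order. Under 40% against 40 to 80%, Hist1h1b measured 520 and 785 CPM (log2 ratio -0.59, interval -0.72 to -0.47, lower in 8 of 8 sets) and Hist1h1e 608 and 781 CPM (-0.36, lower in 8 of 8 sets). Hist1h1a measured 27.8 and 98.4 CPM (-1.82, -2.34 to -1.34, lower in 6 of 8 sets). Hist1h2ae differed little, with 1511 and 1601 CPM (-0.08, -0.16 to -0.00). Hist3h2ba went the other way, with 29.1 and 18.9 CPM on 45 and 35 UMIs (0.62, -0.05 to 1.30, higher in 6 of 8 sets). Of 43 genes compared, Hist1h1a and Hist1h3a (-1.06), 2 in all, were 2-fold lower under 40%, against 3.64% of 8948 genes, and 0 were 2-fold higher (2.78%). These bins were chosen after the bins of list UMIs had been seen.

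Cells without a UMI of Mki67 or Top2a held 58.7% of all gene UMIs and 13.9% of the histone UMIs (interval 13.7 to 14.1). With each cell thinned to 5000 UMIs, 79.2% of the gene UMIs and 29.9% of the histone UMIs lay in cells without either gene. At full depth their sum was 312 CPM, and it hardly moved with the other cell-cycle genes: 313 CPM in cells with 3 or more UMIs of the S-phase and G2/M lists, 301 with 1 to 2 and 317 with none (142 cells). The median cell among them held 2 histone UMIs, 16.7% held none and the highest held 46. Their make-up differed from that of cells with Mki67. H1 gave 46.0% of the histone UMIs there against 30.8% with Mki67, and H4 24.9% against 13.9%. H2A gave 14.2% against 39.7%. H2B (8.01 and 8.09%) and H3 (6.77 and 7.46%) took about the same part of both.

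Of the 53 genes with 50 or more UMIs, 51 had a share in cells without Mki67 and Top2a whose interval lay below the 58.7% of all gene UMIs. How many of all genes have such an interval was not counted. The other 2 histone genes were Hist3h2a with 67.7% (57.5 to 76.7) and Hist2h2be with 61.9% (51.4 to 71.5), on 99 and 97 UMIs. Next came Hist4h4 with 44.9% (40.7 to 49.1), Hist3h2ba with 43.6% (40.2 to 47.0), Hist1h2bc with 42.7% (36.9 to 48.6) and Hist1h1c with 41.8% (40.5 to 43.2). Hist1h4a had 39.1%, Hist2h2aa1 36.4%, Hist1h4c 29.2% and Hist1h4i 27.3%. These 10 genes with the highest shares come from each of the 4 clusters and include no H3 gene. At the other end, 21 genes had 10% or less, with Hist1h2bk at 1.64%, Hist1h3b at 1.77% and Hist1h3c at 1.78% lowest. The share of all genes at 10% or less was not counted either. Of the genes with most UMIs, Hist1h1e had 24.8%, Hist1h4d 19.9%, Hist1h2ae 4.11% and Hist1h1b 3.05%. In these cells Hist1h1e had the most histone UMIs (4155), followed by Hist1h4d (2307), Hist1h1c (2195) and Hist1h2ae (982).

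**Figure D4:**
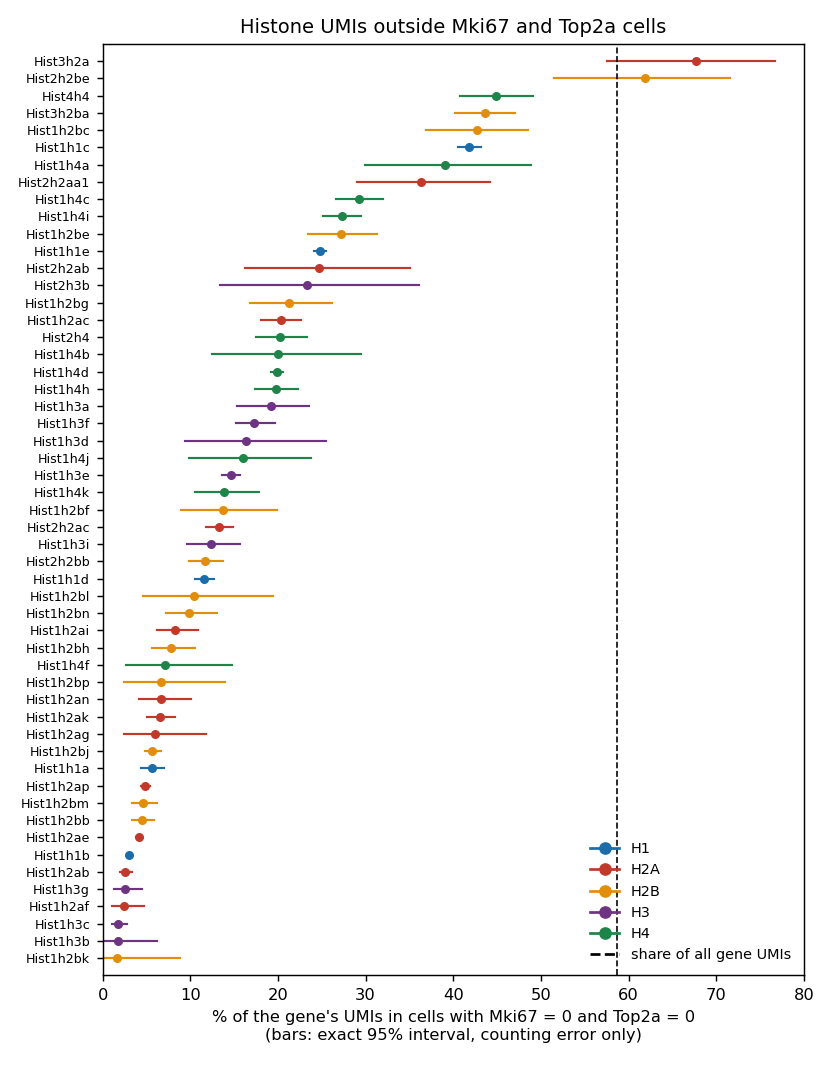
Percent of each gene's UMIs that lay in cells without Mki67 and Top2a (x axis) for the 53 histone genes with 50 or more UMIs, coloured by type, with exact 95% intervals of counting error; the dashed line is the 58.7% of all gene UMIs in the same cells. Hist3h2a and Hist2h2be reach the line and the other 51 lie to its left.

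RNA outside cells was rich in these genes. Barcodes with under 100 UMIs held 1803 CPM of them on day 13 and 3764 CPM on day 19, above the 319 and 301 CPM of cells without Mki67 and Top2a. Relative to that free RNA, the level in those cells differed between the genes. On day 13 it was 0.886% of the free level for Hist1h3c (0.331 and 37.4 CPM), 4.12% for Hist1h1b, 11.4% for Hist1h2ae, 46.6% for Hist1h1c (48.9 and 105 CPM) and 111% for Hist3h2ba (7.59 and 6.82 CPM). On day 19 the same 5 genes had 0.383%, 2.09%, 6.31%, 30.7% and 61.7%. Hist1h4i had 74.8% and 75.1%. Barcodes outside the contig tables, of which 78.7% on day 13 and 89.7% on day 19 had 3 or more myeloid UMIs, measured nearly the same sum without Mki67, 302 CPM (3377 barcodes) and 282 CPM (937 barcodes). Of all these barcodes, 73.2% on day 13 and 73.4% on day 19 also had 3 or more T cell marker UMIs, so they are no group without T cell RNA. Over the 56 genes their levels ranked as in the T cells without Mki67 and Top2a (Spearman's rho 0.985 on day 13 and 0.962 on day 19, across genes of the same libraries, which are not independent). The rank correlation with free RNA was 0.736 and 0.732. Within T cells without Mki67, those with 3 or more myeloid UMIs had 320 CPM and the others 324. How much of the level without Mki67 is free RNA was not tested.

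The study compared day 13 with day 19. In CD8 T cells (Cd8a or Cd8b1 and no Cd4) the histone sum was 1370 CPM on day 13 and 1862 CPM on day 19, a log2 ratio of 0.44 (0.42 to 0.46). The sets measured 1775, 1320, 1208 and 1474 CPM on day 13 and 2021, 1777, 1622 and 2146 CPM on day 19. The 2 days overlapped, since set 1 of day 13 lay above set 3 of day 19. In CD4 T cells the sum was 800 CPM on day 13 and 1179 CPM on day 19 (0.56, interval 0.51 to 0.60), with sets of 1192, 1029, 581 and 453 CPM against 1343, 1225, 634 and 1430 CPM, which also overlapped. The share of cells with Mki67 was also higher on day 19, as given above. Free RNA held 55.6 CPM of Mki67 and 60.6 CPM of Top2a on day 13, and 111 and 130 CPM on day 19, and its part in that share was not tested. Within cells without Mki67, CD8 T cells had 332 CPM on day 13 and 327 CPM on day 19 (log2 ratio -0.02, -0.08 to 0.03, and 0.05 thinned). The CD4 T cells without Mki67 had 331 and 305 CPM (-0.12, -0.20 to -0.03), with overlapping sets. The direction turned to 0.22 with cells thinned to 5000 UMIs. Thinned cells were grouped again by their thinned counts in both classes. Within cells with Mki67 the ratio was 0.10 in CD8 T cells (4220 and 4523 CPM) and 0.02 in CD4 T cells (2964 and 3013 CPM), again with overlapping sets. With each contig set left out in turn, the latter ranged from -0.23 (without set 4 of day 13) to 0.35 (without set 2 of day 13), and in cells with 4 or more Mki67 UMIs it was -0.65 (8468 CPM in 23 cells and 5415 CPM in 75 cells) and that of CD8 T cells -0.03, a limit chosen after seeing the data. In sums over cells, more cells with a transcript and more RNA per cell cannot be told apart, and the values within the Mki67 groups are given for that reason.

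By gene, 3 of 55 were 2-fold higher on day 19 in CD8 T cells (3.29% of all genes) and 0 lower (3.16%). The 3 were Hist1h4j, Hist1h3g and Hist1h2bp, named after their values were seen, with log2 ratios of 1.41, 1.18 and 1.02. Hist1h4j and Hist1h2bp rest on few UMIs, 50 and 46 on day 19 against 25 and 30 on day 13. In CD4 T cells 9 of 44 were 2-fold higher (3.44%) and 0 lower (2.79%), but without the 2 cells with the most histone UMIs 5 of 43 were higher and 1 lower. In CD8 T cells without Mki67, 1 of 37 genes (Hist1h2ab) was 2-fold higher (3.17%) and 3 (Hist2h2be, Hist2h2aa1 and Hist1h4k) were lower (3.27%). In CD4 T cells without Mki67, 0 of 25 were higher (2.7%) and 1 (Hist2h2bb) was lower (2.36%). With Mki67, 1 of 53 genes (Hist1h4b) was 2-fold higher in CD8 T cells (3.08%) and 0 lower (2.34%). In CD4 T cells with Mki67, 4 of 39 were higher (3.95%) and 2 lower (3.23%), and without the 2 cells 2 and 1 of 37. The counts in CD8 T cells were 0 to 3 genes each. Hist1h4d measured 50.8 CPM on day 13 and 46.7 CPM on day 19 in CD8 T cells without Mki67 (log2 ratio -0.12, -0.27 to 0.02), and 51.1 and 41.4 CPM in CD4 T cells (-0.30, -0.53 to -0.07), with overlapping sets in both. Hist1h1c was lower on day 19 in both classes without Mki67. Its CD8 sets measured 54.8, 45.8, 46.9 and 41.9 CPM on day 13 and 40.8, 38.4, 39.5 and 35.0 CPM on day 19 (log2 ratio -0.29, -0.44 to -0.13). Each set of day 19 lay below each set of day 13, but how many of all genes do so was not counted. Its CD4 sets measured 52.8, 63.6, 40.8 and 42.7 CPM on day 13 and 41.5, 32.5, 25.8 and 34.9 CPM on day 19 (-0.63, -0.88 to -0.38), where set 1 of day 19 overlapped day 13. With Mki67 its CD8 level was not lower on day 19, at 96.5 to 122 CPM on day 13 and 107 to 147 CPM on day 19.

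Other genes moved less evenly without Mki67. In CD8 T cells Hist2h2ac (0.51), Hist1h2bj (0.50), Hist1h2ae (0.42), Hist1h2ap (0.24) and Hist1h4c (0.12) had the highest log2 ratios of day 19 over day 13 among the genes with 50 or more UMIs. Hist1h2ae measured 20.7 and 27.7 CPM, with sets of 16.7 to 23.4 against 23.1 to 31.6 that overlapped. The lowest were Hist1h2be (-0.69), Hist2h4 (-0.42), Hist4h4 (-0.34), Hist1h1c and Hist1h1a (-0.28), and Hist2h4 did not overlap between the days (3.28 to 4.55 against 2.76 to 3.23 CPM). In CD4 T cells the highest were Hist1h1b (0.71), Hist2h2ac (0.66), Hist1h2ap (0.63), Hist1h2ae (0.09) and Hist1h1e (0.04). The lowest were Hist1h4c (-0.72), Hist1h1c, Hist1h2bc (-0.57), Hist3h2ba (-0.54) and Hist4h4 (-0.46). Hist3h2ba, on 66 and 47 UMIs, measured 8.54 to 11.9 CPM in the day-13 sets and 3.07 to 7.96 CPM in the day-19 sets. The highest and lowest genes of a list are extremes by choice, and most of these intervals held 0. How many of all genes have sets apart between the days was not counted.

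CD4 T cells had lower histone sums than CD8 T cells on both days. The log2 ratio was -0.78 (-0.81 to -0.74) on day 13 and -0.66 (-0.69 to -0.63) on day 19, and the CD4 value was below the CD8 value in each of the 8 sets. Over all cells 16 of 52 genes were 2-fold lower in CD4 T cells on day 13 (5.13%) and 1, Hist1h2bc, was higher (13.2%), and on day 19 6 of 54 were lower (4.53%) and 0 higher (13.6%). Without the 2 cells with the most histone UMIs these counts were 23 and 1 on day 13 and 14 and 0 on day 19. Without Mki67 the classes had 331 and 332 CPM on day 13 (-0.00) and 305 and 327 CPM on day 19 (-0.10, -0.18 to -0.03). Neither ratio kept its direction, since without cells with 3 or more myeloid UMIs they were 0.15 and 0.08. Day 13 was -0.21 with cells thinned and grouped again by their thinned counts. With Mki67 the ratio was -0.51 on day 13 and -0.59 on day 19, and without the 2 cells with the most histone UMIs it was -0.75 and -0.79. The day-13 direction is not stable: without cells with 3 or more myeloid UMIs that ratio was 0.16. The CD4 sets with Mki67 measured 4181, 4688, 1904 and 1190 CPM on day 13 and the CD8 sets 4703, 4313, 4031 and 4006 CPM, and they overlapped. On day 19 they measured 3294, 3409, 1430 and 3338 CPM against 3737, 4868, 4185 and 4787 CPM, and did not overlap. These ranges rest on few CD4 cells with Mki67, 110 on day 13 and 189 on day 19, with 18 in the smallest set.

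The CD4 cells with Mki67 also held fewer Mki67 UMIs per cell. They were shallower than the CD8 cells with Mki67, with a median of 11845 gene UMIs against 15968 on day 13. On day 19 the medians were 15728 and 17182, and the part of depth was not tested. Of the CD4 cells with Mki67, 63.6% on day 13 and 43.4% on day 19 had a single Mki67 UMI, against 38.6% and 28.3% of the CD8 cells. The shares with 8 or more were 17.3% and 23.3%, against 28.2% and 38.1%. At 1 Mki67 UMI the CD4 sum was 330 and 332 CPM and the CD8 sum 767 and 500 CPM. At 4 or more UMIs the classes differed by 0.41 on day 13, with CD4 higher (23 and 202 cells, CD4 lower in 1 of 4 sets), and by -0.21 on day 19, with CD4 lower (75 and 252 cells, in 3 of 4 sets). The 2 cells with the most histone UMIs were both CD4: one from day 19 with 1355 among 19998 gene UMIs and 52 of the genes seen, and one from day 13 with 700 among 16201 and 41 of the genes seen. Without them the values at 4 or more UMIs were 0.18 and -0.43, so the direction was as before on both days, while the size was smaller on day 13 and larger on day 19. The bins of 4 or more were chosen after the levels were seen.

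In the comparison by gene with Mki67, 9 of 47 genes were 2-fold lower in CD4 T cells on day 13 (5.49% of all genes) and 2, Hist1h3e and Hist1h2bc, were higher (11.6%). On day 19, 6 of 51 were lower (3.83%) and 0 higher (11.8%). Without the 2 cells the counts were 12 lower and 1 higher on day 13, and 15 lower and 0 higher on day 19. The median over all genes was 0.02 on day 13 and 0.12 on day 19, against -0.34 and -0.48 over the histone genes. Hist1h2ap measured 149 CPM in CD4 and 312 CPM in CD8 T cells on day 13 (log2 ratio -1.06, -1.27 to -0.86), and 170 and 378 CPM on day 19 (-1.16, -1.29 to -1.03). Its CD4 sets (58.8 to 223 and 73.6 to 227 CPM) lay below its CD8 sets (275 to 345 and 319 to 446 CPM) on both days. Hist1h3e was 2-fold higher in CD4 T cells on day 13 (282 and 135 CPM, 1.06), but without the 2 cells its ratio was -0.46, since 1 cell held 269 of its UMIs. Without Mki67, 0 of 37 genes were 2-fold lower in CD4 T cells on day 13 (4.08%) and 2, Hist1h2bc and Hist1h2ab, were higher (12.9%), and on day 19 1 of 31, Hist1h4c, was lower (4.51%) and 0 higher (13.3%). Hist1h2ac was among the lowest 2 on both days (-0.84 and -0.98), with day-13 sets of 2.15 to 4.27 against 5.41 to 7.11 CPM. On day 19 its sets overlapped, at 1.54 to 5.47 CPM in CD4 and 4.19 to 9.68 CPM in CD8 T cells. Hist1h2bc (1.12) and Hist3h2ba (0.51) were among the highest on day 13. Hist3h2ba measured 9.86 CPM in CD4 and 6.95 CPM in CD8 T cells then, with sets that did not overlap (8.54 to 11.9 against 5.56 to 8.36). It measured 6.76 and 6.39 CPM on day 19, with sets that did. How many of all genes have sets apart between the classes was not counted. On day 13 the others at the low end were Hist1h4h (-0.88), Hist1h2bj (-0.80), Hist1h2ap (-0.67) and Hist1h1b (-0.61), and at the high end Hist2h2bb (0.59), Hist4h4 (0.34) and Hist1h2be (0.27). On day 19 the low end held Hist1h4c (-1.04), Hist2h2bb (-0.54), Hist2h4 (-0.45) and Hist1h3f (-0.41), and the high end Hist1h1b (0.33) and Hist4h4 (0.22).

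CD8 T cells were split by Pdcd1, the inhibitory receptor PD-1, into cells without it, progenitor-like cells (Tcf7 or Slamf6 and no Havcr2), terminal-like cells (Havcr2 and neither Tcf7 nor Slamf6) and other cells with Pdcd1. A zero can be a missed transcript, so these are classes of detection. On day 13 the histone sum was 610 CPM without Pdcd1, 1487 in progenitor-like, 2237 in other and 2992 CPM in terminal-like cells, and on day 19 it was 1228, 1942, 2179 and 2504 CPM. Terminal-like cells measured 5140, 2430, 2493 and 2726 CPM over the day-13 sets and 1851, 2210, 2985 and 3084 CPM over the day-19 sets. Progenitor-like cells measured 2310, 1466, 1375 and 1166 CPM on day 13, each below each terminal-like set, and 1572, 1887, 1296 and 2782 CPM on day 19, which overlapped. With states called at full depth, the cells without Pdcd1 differed most between days. They measured 680, 621, 697 and 375 CPM against 1734, 1089, 846 and 1488 CPM, with no overlap. With states taken from thinned cells the day-13 sum was 1009 CPM. The day-19 sum under that setting is not given here, so the ranking is given for states at full depth only. The share of cells with Mki67 among the cells without Pdcd1 was 6.05% on day 13 and 13.97% on day 19.

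Depth differed between these classes. The median gene UMIs were 6856 without Pdcd1, 8306 in progenitor-like, 9387 in other and 12912 in terminal-like cells on day 13, in the order of the histone sums. On day 19 they were 8048, 11222, 10959.5 and 12458, where progenitor-like cells were deeper than the other cells but had the lower sum. The part of depth in these sums was not tested. Within cells with Mki67, terminal-like cells had 5195 CPM on day 13 and 5190 on day 19, and progenitor-like cells 3951 and 3569 CPM, and the set ranges overlapped on both days. Without Mki67, terminal-like cells had 472 and 391 CPM and progenitor-like cells 314 and 318 CPM. On day 19 the terminal-like sets without Mki67 (380 to 418 CPM) lay above the progenitor-like sets (276 to 369 CPM), and on day 13 they overlapped (355 to 663 against 267 to 388 CPM). Hist1h1e differed in the same way, with 137 CPM in terminal-like and 69.6 CPM in progenitor-like cells without Mki67 on day 19, and 127 and 75.04 CPM on day 13. Hist1h1c did not share it, with 37.5 and 43.8 CPM on day 19 and 40.9 and 45.4 CPM on day 13. In CD4 T cells with Foxp3, the regulatory T cell factor, the sum was 809 CPM on day 13 and 1361 CPM on day 19, where 15.7% and 32.8% of cells had Mki67. Without contig set 1 (2128 CPM) the day-13 sum was 492 CPM, and with states taken from thinned cells the day-19 sum was 903 CPM. Without Mki67 these cells had 280 and 324 CPM. CD4 T cells with neither Foxp3 nor Pdcd1 had 541 and 696 CPM and those with Pdcd1 alone 1077 and 1166 CPM, with overlapping sets in each case.

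**Figure D5:**
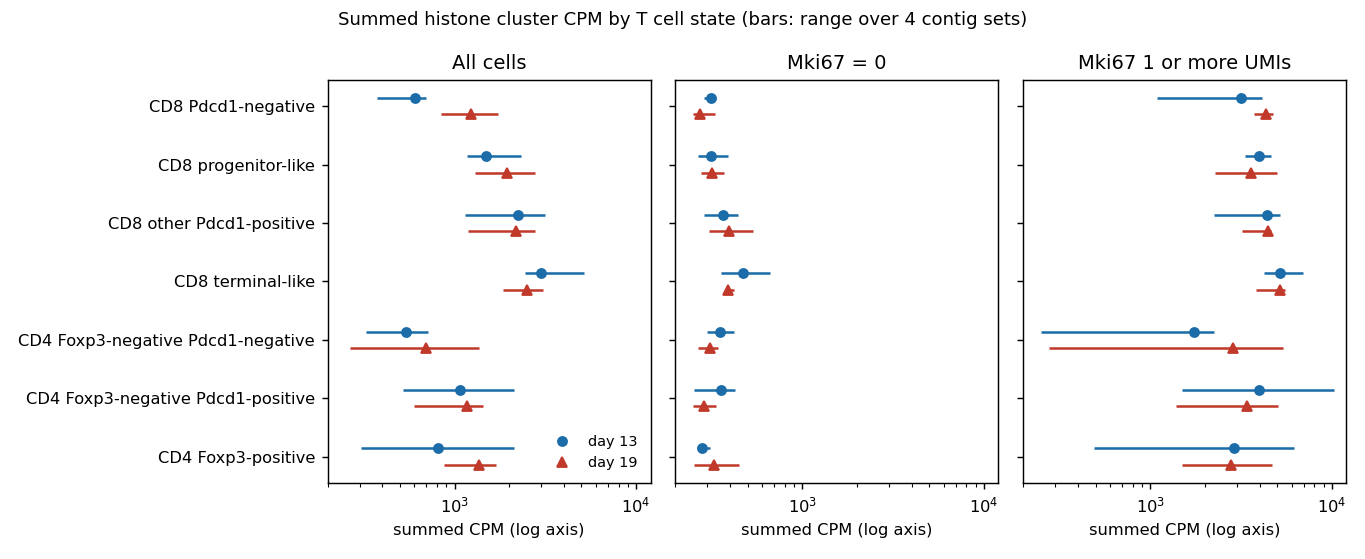
Summed CPM of the 67 histone genes (x axis, log scale) by T cell state in all cells, cells without Mki67 and cells with Mki67; symbols are the sums of day 13 (circles) and day 19 (triangles) and bars the range over the 4 contig sets. With states called at full depth, CD8 T cells without Pdcd1 shift from 610 to 1228 CPM between the days in the left panel. All states without Mki67 lie between 272 and 472 CPM.

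Genes that act with the clusters gave a scale for these values. Over all genes, 6.02% were 2-fold higher with Mki67, as above. Of 10 replacement histones, 4 were, namely H2afx, which marks DNA breaks (log2 ratio 3.02), Cenpa, the centromere H3 (2.69), H2afv (1.70) and H2afz (1.49), against 53 of 56 cluster genes. H3f3b (-0.07), H2afj (-0.02), H3f3a (0.22), H2afy (0.27), H1fx (0.35) and H1f0 (0.45) were not. H3f3b had 59.9% of its UMIs in cells without Mki67 and Top2a, near the 58.7% of all gene UMIs, where the H3 genes of the clusters together had 12.8%. Of 15 genes for histone transcription, messenger RNA processing and deposition, 8 were 2-fold higher with Mki67. The chaperones Asf1b (3.74), Chaf1a (2.53), Chaf1b (1.65) and Nasp (1.35), the stem-loop binding protein Slbp (1.24), the acetyltransferase Hat1 (1.02), the histone-binding helicase subunit Mcm2 (1.38) and Zfp473 (1.97) formed this group. Lsm10 (0.11), Cpsf3 (0.16) and Asf1a (0.22) were nearest to 0, and Npat, which activates histone transcription, had 0.56. The S-phase list, which also holds Slbp and Mcm2, passed 2-fold with 21 of 22 genes and the G2/M list with 20 of 20.

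Neighbouring H2A and H2B genes share the short stretch between their start sites, and RefSeq has 12 such pairs with 163 to 280 bases between the genes. Their UMIs were unequal in most pairs. Hist1h2ae had 23909 UMIs and its neighbour Hist1h2bg 311, Hist1h2ap 7401 and Hist1h2br 19, and Hist2h2ac 1905 and Hist2h2be 97. The order was opposite for Hist1h2ag with 118 and Hist1h2bj with 2510. Members of some pairs differed in where their UMIs lay. Hist1h2ae had 4.11% of them in cells without Mki67 and Top2a and Hist1h2bg 21.2%, and Hist2h2ac 13.3% and Hist2h2be 61.9%. Hist1h2ac had 20.3% and Hist1h2bc 42.7%. Other pairs were close, with 6.64% for Hist1h2an and 6.67% for Hist1h2bp, 5.93% for Hist1h2ag and 5.66% for Hist1h2bj, 8.30% for Hist1h2ai and 10.4% for Hist1h2bl, and 6.52% for Hist1h2ak and 9.89% for Hist1h2bn.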

How the data were processed

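The 2 gene expression libraries (day 13 and day 19) and 8 tables of T cell receptor contigs were used. Per the file headers, the authors' matrices hold raw UMI counts per gene and barcode, unfiltered, from Cell Ranger 4.0.0; the submitters' processing notes name that version, bcl2fastq 2.20, STAR 2.7.5c, R 4.1.2, Seurat and the build mm10. For reads that match near-identical genes, the assignment rule is not stated in the labels. The deposited counts include 736611 barcodes on day 13 and 735849 on day 19. Contig barcodes with at least 5000 gene UMIs and at most 10% mt- UMIs were kept (all 67 genes counted, none filtered). UMIs were summed over cells and scaled to CPM with Python 3.11.15, numpy 2.4.6, scipy 1.17.1 and pandas 2.3.3. CPM ratios carry exact conditional 95% intervals for 2 Poisson counts, and shares carry exact Clopper-Pearson intervals. Where a group had 0 UMIs, its floor was 3 counts per group. A gene was compared with 20 or more UMIs over both groups and called at 2-fold, and the same was done for all genes as background. Thinning drew 5000 UMIs per cell without replacement. In the alternatives with thinned cells, Mki67, Top2a and the CD8 and CD4 classes were read again from the thinned counts, so the groups hold partly other cells. No test was made, since each day is 1 capture. The calculations were tested on simulated data. All 67 genes were matched to RefSeq GRCm38.p6 by synonym, 66 to 1 gene and Hist1h2ap to 2.

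Genes were named first by rule: the 4 of each type with most UMIs, the 10 with the highest share of UMIs in cells without Mki67 and Top2a among those with 50 or more UMIs, and the 5 highest and 5 lowest by day and by class in cells without Mki67. The high end by class on day 19 is given with fewer. Other genes were named after their values were seen, such as extremes of a comparison, genes past 2-fold and neighbours in a pair. The genes and lists were chosen with earlier results of these data known. Alternatives changed the UMI minimum, depth, myeloid cells, upper limit, weighting, scaling, Mki67 rule and states, and left out each contig set. The antibody tag counts were not analysed here.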

Additional observations from a re-analysis of the deposited data

Results flagged for a closer look

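In 2 of 28 groups of 4 contig sets, a set lay apart by Dixon's 95% critical value, which chance passes in about 1 of 20 groups. The histone sum of terminal-like CD8 T cells on day 13 was 5140 CPM in set 1, which holds 31 of these cells, and 2430 to 2726 CPM in the other 3 sets. The sum of CD4 T cells with Mki67 on day 19 was 1430 CPM in set 3, from 36 cells, and 3294 to 3409 CPM in the other 3 sets.

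Barcodes with Mki67 outside the contig tables, which enter no comparison above, held histone sums of 1376 CPM on day 13 (869 barcodes) and 1649.96 CPM on day 19 (515 barcodes), above the 302 and 282 CPM of barcodes without Mki67 there. They lay below the 3821 CPM of T cells with Mki67 and a contig.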

How the results depend on the processing

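Of 437 values recomputed for 32 results, 417 moved by less than the spread between contig sets (counts by less than 1.5 times). The sign changed under at least 1 setting for each day ratio within a Mki67 group and for the CD4 over CD8 ratios within a Mki67 group, except that of day 19 with Mki67. The median log2 ratio over histone genes by Mki67 (3.59) was 3.74 with at least 8000 gene UMIs, 3.94 without cells with 3 or more myeloid UMIs, 3.24 with Top2a in place of Mki67, 4.01 with 2 or more Mki67 UMIs and 2.37 against cells without any cell-cycle UMI. The 2.37 is in part a floor value, since genes with 0 UMIs in those cells were set to 3 counts. With each contig set left out, the median was 3.41 to 3.68. The share of histone UMIs in cells without Mki67 and Top2a (13.9%, beside 58.7% of gene UMIs) was 29.9% with cells thinned to 5000 UMIs (79.2% of gene UMIs), 19.2% without cells above 25000 gene UMIs (65.0%) and 0.259% in the 142 cells that also lacked S-phase and G2/M UMIs (1.07%). The log2 ratio of CD4 over CD8 T cells without Mki67 on day 13 (-0.00) was -0.13 at 8000 UMIs, 0.15 at 1000 UMIs, -0.21 thinned, 0.15 without myeloid cells, -0.17 scaled without histone, ribosomal, mitochondrial and receptor genes, and -0.12 as a median over genes, so it has no stable sign. With Mki67 (-0.51) it was 0.41 at 4 or more Mki67 UMIs, a setting chosen after seeing the data. Without cells with 3 or more myeloid UMIs it was 0.16, and that without Mki67 on day 19 (-0.10) was 0.08. The day ratio of CD4 T cells with Mki67 (0.02) was -0.65 at 4 or more Mki67 UMIs and -0.23 to 0.35 with each contig set left out. The day ratio was 0.22 thinned in CD4 T cells without Mki67 (-0.12) and 0.32 without cells above 25000 UMIs in CD8 T cells with Mki67 (0.10). With states taken from thinned cells, CD8 T cells without Pdcd1 had 1009 CPM on day 13 (610) and CD4 T cells with Foxp3 903 CPM on day 19 (1361). The cause of each move was not tested. No paired analysis of the days was possible because each day is 1 capture and the set numbers do not tie sets of the 2 days to each other. Within a set, the classes and the Mki67 groups were compared as counts of sets in a direction, without a test. Depth limits genes under 20 UMIs, for which no ratio is read.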
